A study of Mus musculus with 20 samples.

Results

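Cytosolic ribosomal protein genes were followed across all 20 libraries of a study of growth cones and cell bodies of subcerebral projection neurons. A gene was taken as a member if its mouse symbol was that of a ribosomal protein of the large subunit (Rpl), the acidic stalk (Rplp0 to Rplp2) or the small subunit (Rps, Rpsa). Kinases named Rps6k (10 symbols) and pseudogenes marked -ps were left out. The rule found 93 of 55487 genes, of which 55 encode or resemble large-subunit proteins, 37 small-subunit proteins, and 1, Rps19bp1, a protein that binds Rps19 and is not part of the ribosome. Of the 92 others, 77 are the canonical genes (46 large and 31 small) and 15 are paralogs or copies such as Rpl22l1, Rps27l and Rpl7l1. The gene annotation GENCODE M21 lists 86 of the 93 members as protein-coding. The rest are annotated as pseudogenes though their symbols lack -ps: Rpl32l, Rpl37rt, Rpl6l, Rps12l1, Rps3a2, Rps3a3 and Rps4l.

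All libraries came from mice at postnatal day 1. Subcerebral projection neurons sit in the cortex and send their axons down to brainstem and spinal cord. Cell bodies (somata) were taken from cortex, and growth cones, the tips of growing axons, from brainstem and spinal cord. The 4 groups had 5 libraries each: WT somata, somata labelled KO, WT growth cones and growth cones labelled KO, where KO means null for Bcl11b, a transcription factor gene of these neurons. The labels give no allele, strain, Cre driver or number of animals behind a library, and they do not say that replicates came from separate animals, so p-values measure the spread between these libraries. The labels' protocols put the RNA used per library at 1.8 to 3.1 ng (somata) and 0.19 to 3.1 ng (growth cones). Growth cone libraries carry experiment numbers from 7 to 11 and soma libraries numbers from 12 to 26. No number occurs in both compartments, so compartment and experiment cannot be told apart.

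Total counts per library ran from 18962308 to 51205154 in somata and from 21657575 to 29323028 in growth cones. Levels below are counts per 1000000 counts of the library (CPM). Bcl11b itself was at 655 ± 122 CPM in WT somata and, in those labelled KO, 1082 ± 53.6 CPM (SD, n = 5 each; two-sided exact permutation p = 0.00794, the lowest value 5 against 5 can give), higher where the label says KO. The labels do not say which part of the gene is deleted, and a partial deletion can leave counts over the whole gene unchanged or higher, so this count does not check the label. In growth cones it was at 108 ± 20.1 and 108 ± 35.3 CPM (exact permutation p = 0.905). The groups are called "labelled KO" throughout, since these counts show no loss.

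The ribosome has a small subunit that reads the mRNA and a large subunit that joins amino acids, and each holds its proteins in one copy, apart from the acidic stalk proteins. Most mRNAs of ribosomal proteins begin with a C followed by a run of C and T, the TOP motif, through which their translation follows mTOR signalling. Such mRNAs are known from axons and growth cones of several neuron types, where some new ribosomal proteins are made locally and join existing ribosomes.

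The start regions of 13 members are printed because they are the genes the results turn on: the members with the largest and smallest compartment differences, 2 paralog pairs and the stalk and laminin-receptor genes. Each is 30 bases of the coding strand, 5′ to 3′, from 15 bases before the start annotated by RefSeq on build GRCm38.p6. Capitals mark the longest run of C and T that touches the stretch from 5 bases before to 10 bases after that start.
Rpl12, chr2:32961697-32961726, plus strand: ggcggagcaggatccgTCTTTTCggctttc
Rps12, chr10:23787195-23787224, minus strand: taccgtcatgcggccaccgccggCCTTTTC
Rpl31, chr1:39367836-39367865, plus strand: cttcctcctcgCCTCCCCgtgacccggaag
Rplp0, chr5:115559452-115559481, plus strand: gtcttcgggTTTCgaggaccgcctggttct
Rplp2, chr7:141447636-141447665, plus strand: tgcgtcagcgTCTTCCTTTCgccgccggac
Rpsa, chr9:120127751-120127780, plus strand: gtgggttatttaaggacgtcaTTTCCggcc
Rpl5, chr5:107900513-107900542, plus strand: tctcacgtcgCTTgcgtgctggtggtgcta
Rpl15, chr14:18270972-18271001, minus strand: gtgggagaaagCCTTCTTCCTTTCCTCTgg
Rpl7l1, chr17:46782642-46782671, minus strand: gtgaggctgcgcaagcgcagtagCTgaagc
Rpl22, chr4:152325711-152325740, plus strand: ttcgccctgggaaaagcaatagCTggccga
Rpl22l1, chr3:28805493-28805522, plus strand: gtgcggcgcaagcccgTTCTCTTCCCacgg
Rps27, chr3:90213634-90213663, minus strand: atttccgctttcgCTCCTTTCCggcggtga
Rps27l, chr9:66946071-66946100, plus strand: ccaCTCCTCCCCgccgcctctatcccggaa

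The longest of these runs, 17 bases, is that of Rpl15, and the shortest, 2 bases, are those of Rpl22 and Rpl7l1. The run of Rps12 goes on past the printed window to 11 bases. For these 13 genes, annotated starts lie up to 405 bases (Rpl15) from the outermost start in the deposited gene table, and up to 3553 bases (Rps24) over all 68 members with a promoter in the table, so a window is an annotation and not a start measured in these libraries.

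Growth cone libraries held about 4 times as much ribosomal protein mRNA, as a share of all counts, as soma libraries. The summed level of the 93 members was 12579, 8605, 8872, 9288 and 8118 CPM in WT soma libraries 12, 14, 22, 25 and 26. In somata labelled KO it was 8921, 9353, 10431, 9273 and 9601 CPM in libraries 14, 15, 22, 25 and 26. In growth cones 7 to 11 it was 46958, 52064, 40014, 31788 and 39753 CPM in WT and 52672, 43790, 42594, 28709 and 40728 CPM in those labelled KO. Every growth cone library was above every soma library, and library 10 was the lowest growth cone library of both labelled genotypes. The means were 9493 ± 1777 and 9516 ± 567 CPM in WT somata and somata labelled KO against 42115 ± 7731 and 41699 ± 8592 in the growth cones (SD, n = 5 each). This is 0.949% and 0.952% of counts in somata and 4.21% and 4.17% in growth cones, a ratio of means of 4.44 in WT and 4.38 in the labelled KO. WT soma library 12 stood apart from the other four WT soma libraries, whose mean was 8721 ± 490 CPM (n = 4), and without it the WT ratio was 4.83.

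**Figure D1:**
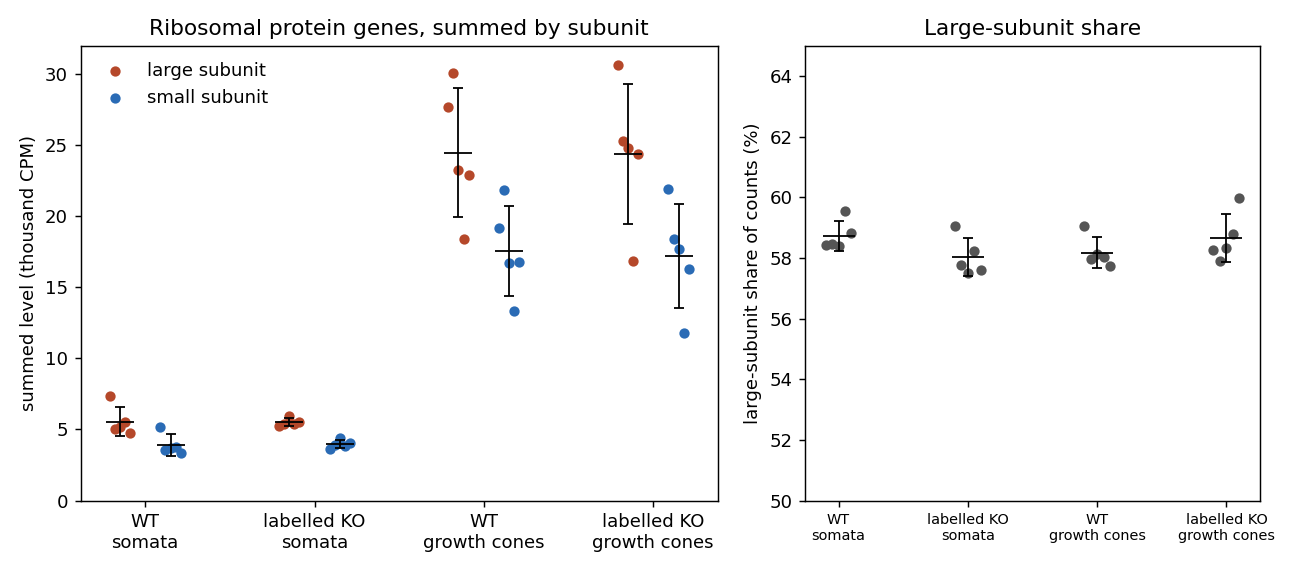
Left: summed level of large-subunit and small-subunit members in each library (in units of 1000 CPM, linear axis from 0), with mean and SD of 5 libraries as bars. Right: large-subunit share of the counts of both subunits in each library (percent; the axis runs from 50 to 65), between 58.0% and 58.7% on average in the 4 groups. Both subunits are higher in every growth cone library than in any soma library.

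Gene by gene, 89 members had enough counts to be tested in every comparison. In WT, 81 of the 89 were higher in growth cones than in somata (edgeR quasi-likelihood test, Benjamini-Hochberg FDR 0.05 over 15128 genes, of which 22.8% were higher), and 0 were lower, against 19.5% of all genes. In the labelled KO, 83 of 89 were higher (21.1% of 15410 genes) and 0 lower (17.2%). The median log2 fold change of the members was 1.91 in WT and 1.96 in the labelled KO (3.76-fold and 3.89-fold), beside 0.07 and 0.09 over all genes tested. The 5 growth cone libraries did not overlap the 5 soma libraries for 80 members in WT (22.1% of all genes) and 85 in the labelled KO (20% of all genes). Without WT soma library 12 the WT values were 83 members higher and a median of 2.11. Of the 4 members left untested, Rpl10l and Rps12l1 had 0 counts in all 20 libraries, and Rpl39l and Rpl3l had counts in 3 and 4 libraries.

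The size of the difference depends on how exon length is treated. Offsets that remove, library by library, a trend of count on exon length lowered the members' median to 1.22 in WT and 1.33 in the labelled KO, with 70 members higher in WT and 71 higher and 1 lower (Rpl29) in the labelled KO. Over all genes, short genes were higher in growth cones: genes with under 1500 bases of exon had a median log2 fold change of 1.64 in WT, those of 1500 to 3000 bases 0.50 and longer ones −0.31. Members in the same length classes had medians of 1.98 (34 genes), 1.96 (39 genes) and 1.55 (16 genes). In WT, 48.2%, 29.3% and 14.2% of all genes tested in these classes were called higher, beside 85.3%, 97.4% and 87.5% of members.

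Markers of several cells other than cortical neurons moved with the compartment; the counts below stand beside 22.8% of all genes higher in WT and 21.1% in the labelled KO. Summed markers of astrocytes were at 383 to 966 CPM in WT somata and 2820 to 3137 in WT growth cones (8 of 10 higher). Oligodendrocyte lineage markers were at 63.9 to 119 against 608 to 2385 CPM (7 of 10 higher). The 7 listed erythroid genes were at 4.32 to 13.3 against 233 to 530 CPM in sum. The 8 listed choroid plexus and meninges genes were at 1.79 to 8.96 against 317 to 447 CPM. The 13 listed hindbrain and spinal cord transcription factor genes were at 0.0527 to 1.41 against 110 to 167 CPM. Hoxa3, Hoxb3 and Hoxc4 were at 0 in all somata, as was the erythroid gene Slc4a1. Genes near 0 in somata pass the count filter only through growth cones, where they are high. No counts of genes called are therefore given for the erythroid, choroid plexus and hindbrain lists. Vessel markers were at 3.23 to 19.7 against 56.2 to 169 CPM in sum, with 2 of 7 tested called, near the share of all genes. Microglial markers, at 5.59 to 120 against 70.5 to 109 CPM, overlapped between compartments, and 2 of 10 were called, also near that share. Genes of subcerebral projection neurons went down, from 2770 to 3118 CPM to 938 to 1155 CPM (8 of 10 lower, 1 higher). In the labelled KO, 8 of 10 projection neuron genes were lower. The astrocyte, oligodendrocyte lineage, vessel and microglial lists there gave 6 of 10, 6 of 9, 1 of 7 and 2 of 10 higher. The part of any of these lists in the ribosomal protein difference was not tested. In bulk libraries more cells of a type and more RNA per cell cannot be told apart.

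Large and small subunits had medians close to each other. In WT, 47 of 52 tested large-subunit members and 33 of 36 small-subunit members were higher in growth cones, with median log2 fold changes of 1.94 and 1.92. In the labelled KO the counts were 48 of 52 and 34 of 36, with medians of 1.99 and 1.96. Large-subunit members made up 58.7% ± 0.492 and 58.0% ± 0.631 of subunit counts in WT somata and somata labelled KO, and 58.2% ± 0.510 and 58.7% ± 0.803 in the growth cones (SD, n = 5). The mean log2 level of large-subunit members minus that of small-subunit members was 0.03 ± 0.04, −0.03 ± 0.02, −0.01 ± 0.04 and −0.04 ± 0.04 in the same order, over members with a mean of at least 1 CPM. When the subunits were summed per kilobase of exon, the log2 ratio of large to small was 0.55 ± 0.02 and 0.55 ± 0.03 in WT somata and somata labelled KO and 0.72 ± 0.03 and 0.74 ± 0.04 in the growth cones. By that second measure, in which Rplp1 and Rpl36 are the highest growth cone genes, the balance was further toward the large subunit in growth cones, and by the first it was not.

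**Figure D2:**
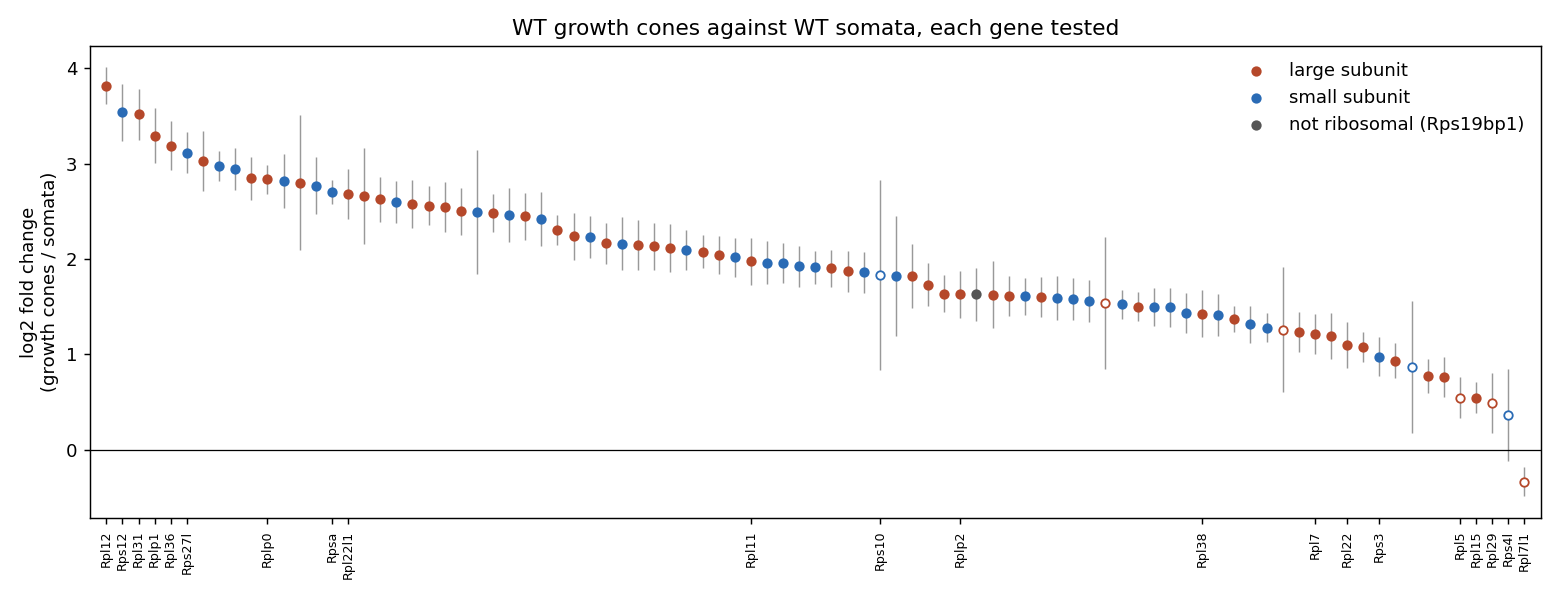
Log2 fold change between WT growth cones and WT somata for each of the 89 tested members, ranked, with the standard error as bars. Filled points passed FDR 0.05 and open points did not; colour marks the subunit, and some genes named in the text are labelled. Members run from Rpl12 at 3.81 to Rpl7l1 at −0.33, and the colours are mixed along the order.

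The members with the largest differences were of both subunits. Rpl12, a large-subunit protein at the base of the acidic stalk, was at 94.0, 78.2, 65.5, 80.8 and 70.1 CPM in the WT soma libraries and at 1154, 1585, 1312, 924 and 1017 CPM in the WT growth cones. In the labelled KO it was at 59.0, 76.7, 84.3, 62.7 and 76.8 CPM in somata and 1340, 1031, 1555, 683 and 1284 CPM in growth cones. The lowest growth cone library was thus far above the highest soma library, and the log2 fold changes were 3.81 ± 0.19 (SE; edgeR adjusted p = 1.03e-07) in WT and 3.92 ± 0.25 in the labelled KO, or 14.1-fold and 15.1-fold.

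Rps12, a small-subunit protein, followed at 45.4, 25.4, 25.5, 28.0 and 15.5 CPM in WT somata and 336, 492, 356, 252 and 338 CPM in WT growth cones. In the labelled KO it ran from 23.4 to 31.8 CPM in somata and from 159 to 414 CPM in growth cones. Its log2 fold changes were 3.54 ± 0.30 and 3.48 ± 0.27, and no growth cone library overlapped a soma library. Rpl31, which sits near the exit of the peptide tunnel, rose by 3.51 ± 0.27 and 3.59 ± 0.27, from 59.8 ± 20.2 to 747 ± 173 CPM in WT. Rpl36 differed by 3.19 ± 0.25 and 3.07 ± 0.22.

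The acidic stalk recruits the factors that drive elongation, and its 3 genes were higher in growth cones in both labelled genotypes. Rplp1 was at 132, 82.2, 85.5, 79.6 and 47.9 CPM in WT somata and 842, 1314, 967, 629 and 822 CPM in WT growth cones, with log2 fold changes of 3.29 ± 0.29 in WT and 3.16 ± 0.27 in the labelled KO. Rplp0, the anchor of the stalk, was at 428, 289, 325, 337 and 317 CPM in WT somata and 3217, 2859, 2453, 2449 and 2371 CPM in WT growth cones, with log2 fold changes of 2.84 ± 0.15 and 2.91 ± 0.17. Rplp2 was at 86.1 ± 20.8 and 292 ± 79.4 CPM, with 1.63 ± 0.25 and 1.76 ± 0.21. The estimate for Rplp2, the partner of Rplp1, was the lowest of the 3, and whether the 3 differ among themselves was not tested.

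At the other end of the order stood Rpl5, which with Rpl11 carries the smallest large-subunit rRNA into the ribosome and binds Mdm2 when assembly fails. Rpl5 was at 189, 113, 134, 145 and 118 CPM in WT somata and 282, 283, 189, 208 and 159 CPM in WT growth cones, so the highest soma library overlapped the growth cones. Its log2 fold changes were 0.55 ± 0.21 (adjusted p = 0.0573) and 0.45 ± 0.18 (adjusted p = 0.0719), by edgeR, and it passed under 7 of 19 other settings in WT and 6 of 19 in the labelled KO. Rpl11, its partner, was at 64.1 ± 15.6 and 275 ± 78.4 CPM in WT and had log2 fold changes of 1.97 ± 0.24 and 2.02 ± 0.19. Rpl15 rose by the least among the members called in both, 0.55 ± 0.17 and 0.57 ± 0.12, and its WT call was lost without WT soma library 26 or with length offsets (edgeR adjusted p = 0.0542 and 0.117).

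Rpl29 was at 0.49 ± 0.31 (adjusted p = 0.226) in WT and 0.61 ± 0.20 (adjusted p = 0.0298) in the labelled KO. That call was lost under 10 of 19 other settings and turned to −0.50 (edgeR adjusted p = 0.0415) with length offsets. Transcripts of 84 other genes, 81 of them pseudogenes, share 50-base windows with Rpl29, so its counts are uncertain.

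Members with known roles outside the core of translation were spread over the range. Rpsa, which is also called the laminin receptor, was at 307, 223, 262, 275 and 235 CPM in WT somata and 1755, 2027, 1852, 1810 and 1912 CPM in WT growth cones, with no overlap, and its differences were 6.51-fold and 6.02-fold (SE 0.12 and 0.14 on the log2 scale). Rps6, the substrate of S6 kinases, changed by 1.31 ± 0.19 and 1.36 ± 0.18, and Rps3, which lines the mRNA entry channel, by 0.98 ± 0.21 and 0.86 ± 0.17. Rps27a, made as a fusion with ubiquitin, changed by 1.43 ± 0.21 and 1.44 ± 0.17.

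Among the proteins linked to translation of particular mRNAs, Rpl10a changed by 2.50 ± 0.25 and 2.47 ± 0.21, Rps25 by 1.86 ± 0.21 and 1.92 ± 0.25, and Rpl38 by 1.43 ± 0.24 and 1.41 ± 0.23. Rpl38, whose exons span 542 bases, turned to −0.24 and −0.19 with length offsets (edgeR adjusted p = 0.223 and 0.33). The X-linked members Rpl10, Rpl36a, Rpl39 and Rps4x were higher in growth cones in both labelled genotypes, by 1.64 ± 0.19, 2.24 ± 0.25, 2.11 ± 0.25 and 1.53 ± 0.15 in WT. Rps19bp1, the member that is not a ribosomal protein, was higher too, from 39.9 ± 9.68 to 135 ± 43.6 CPM in WT (1.63 ± 0.28), and its calls were lost with length offsets (edgeR adjusted p = 0.146 and 0.103).

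**Figure D3:**
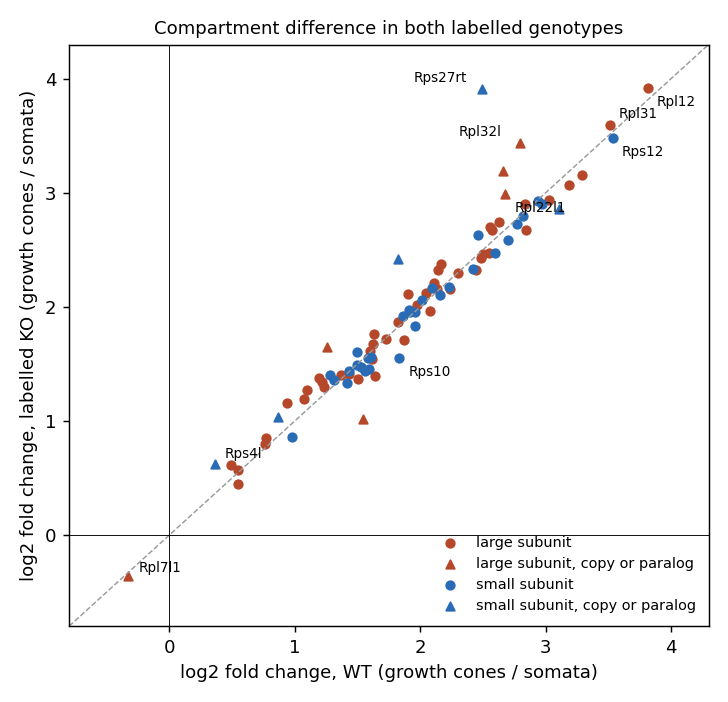
Log2 fold change between growth cones and somata in WT (x axis) and in the labelled KO (y axis) for the tested members of both subunits; circles are canonical genes, triangles paralogs and copies, and the dashed line marks equal values. Canonical genes lie close to the line, and copies with low counts such as Rps27rt (2.49 and 3.91) lie off it.

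The order of the members was much alike in WT and in the labelled KO, which share no libraries. They do share experiment numbers, 7 to 11 in growth cones and 14, 22, 25 and 26 in somata. The 2 comparisons may thus not be independent. Pearson's r between the 2 sets of log2 fold changes was 0.99 across the 77 canonical genes and 0.96 across all 89 tested members. These are correlations across genes, which share libraries, and are given as a description. The same 81 members were higher in both. Rpl29 and Rps4l passed in the labelled KO and not in WT, 0 members passed in WT alone, and Rpl36al, Rpl5, Rpl6l, Rpl7l1, Rps10 and Rps3a2 passed in neither. The interaction of genotype and compartment called 0 of 89 members (0.0397% of 17645 genes), with a median of 0.01, and 0 members had an unadjusted p under 0.05, against 6.87% of genes. DESeq2 and limma-voom also called 0 members in the interaction.

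Per kilobase of exon, canonical members differed widely within a group. In WT somata the highest was Rpl4, a core protein of the large subunit, at 223 ± 24.9 CPM per kilobase, followed by Rplp0 at 205 ± 31.8. In WT growth cones the highest was Rplp1 at 1833 ± 509, followed by Rpl36 at 1684 ± 380, Rplp0 at 1609 ± 217 and Rps2 at 973 ± 70.3. The median canonical gene was at 57.4 and 57.1 CPM per kilobase in WT somata and somata labelled KO, and at 221 and 213 in the growth cones. Rps10 was the lowest in all 4 groups, at 0.351 to 1.41 CPM per kilobase. Only 1 to 3 of the 76 neighbouring pairs in each group's order did not overlap between libraries, so the order is loose from one gene to the next. Across canonical genes the levels per kilobase in WT somata and WT growth cones had a Spearman rho of 0.83.

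Rps10, a protein beside the mRNA entry channel, had raw counts of 87, 4, 16, 15 and 8 in WT somata and 166, 47, 12, 89 and 134 in WT growth cones, and other gene models cover 28.7% of its exon bases. Overlapping models also cover 47.0% of the exon bases of Rpl24 and 35.4% of those of Rpl13a, whose counts were between 132 and 381 and between 120 and 358 in somata. How the counting treated a read in 2 genes is not given in the sources used here, and the strand setting is not given either. Counting models on either strand, over 20% of the exon bases of 13 members are covered, Rpl5 (26.7%), Rpl31 (25.3%) and Rps25 (24.8%) among them, so the levels of all of these are uncertain. More broadly, 82 of the 93 members shared over 10% of their 50-base windows, and 33 over 50%, with transcripts of other genes. Rpl5 (85.4%), Rpl36 (81.1%), Rps12 (64.9%), Rplp1 (60.0%), Rpl22l1 (58.9%) and Rpl11 (54.0%) are among the 33. Rpl12 is at 49.4% and Rpl29 at 35.5%, so the counts of these genes are uncertain too. Pseudogenes with a -ps symbol, which are no members, summed to 94.8 ± 14.8 CPM in WT somata and 914 ± 67.7 in WT growth cones, 1.01 and 2.23 counts per 100 member counts.

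Paralogs differed in how they stood to their canonical partners; the ratios are given as a description, with no test. Rpl22l1, the paralog of Rpl22, was at 15.3, 10.1, 7.45, 12.6 and 13.6 CPM in WT somata and 91.2, 99.6, 76.1, 72.1 and 76.0 CPM in WT growth cones. Rpl22 was at 105, 86.6, 82.6, 86.7 and 65.2 CPM in WT somata and 210, 304, 145, 212 and 130 CPM in WT growth cones. No growth cone library overlapped a soma library for either gene, and the log2 fold changes were 2.68 ± 0.26 and 2.99 ± 0.32 for Rpl22l1 against 1.10 ± 0.24 and 1.27 ± 0.30 for Rpl22. Per kilobase of exon, Rpl22l1 was at 20.7% ± 6.41 of Rpl22 in WT somata, 19.5% ± 6.85 in somata labelled KO, 64.8% ± 16.5 in WT growth cones and 68.3% ± 41.1 in those labelled KO. In WT the ranges were 13.2% to 30.4% and 47.9% to 85.6%, which do not overlap; in the labelled KO, growth cone library 10, at 25.1%, fell within the range of the somata.

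Rpl7l1, a paralog of Rpl7 that takes part in ribosome assembly, made up a smaller share in growth cones. It was at 112, 119, 102, 122 and 91.6 CPM in WT somata and 89.0, 97.1, 97.7, 118 and 77.8 CPM in WT growth cones, which overlap, with log2 fold changes of −0.33 ± 0.15 (edgeR adjusted p = 0.0979) and −0.36 ± 0.21 (adjusted p = 0.204). Rpl7 was higher in growth cones, by 1.22 ± 0.21 and 1.34 ± 0.16. Their ratio was 50.5% ± 12.6 in WT somata and 17.9% ± 6.67 in WT growth cones, and 50.6% ± 8.14 and 15.9% ± 5.98 in the labelled KO, with no overlap in either.

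Rps27l and Rps27 were both higher in growth cones, by 3.11 ± 0.21 and 2.82 ± 0.28 in WT, and the ratio of Rps27l to Rps27 was 58.6% ± 13.7 in WT somata and 70.2% ± 10.7 in WT growth cones, which overlap. Rps4l, annotated as a pseudogene, was at 34.6% ± 8.24 of Rps4x in WT somata and 14.6% ± 8.97 in WT growth cones, with no overlap. Its call in the labelled KO (0.63 ± 0.20, edgeR adjusted p = 0.0274) was lost under 6 of 19 other settings and turned to −0.58 (adjusted p = 0.0514) with length offsets. Rpl36al was at 4.44% ± 1.05 of Rpl36a in WT somata and 2.87% ± 1.00 in WT growth cones, and Rpl3l, Rpl10l and Rpl39l, which are known from muscle and testis, were at or near 0 in all groups.

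**Figure D4:**
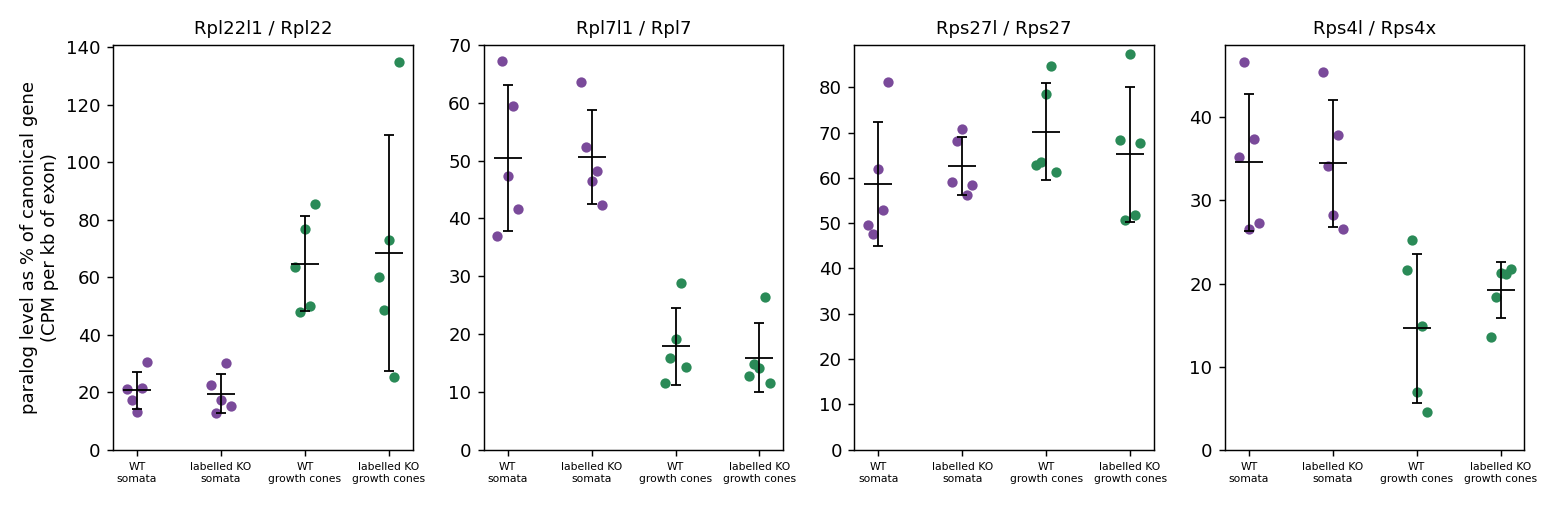
Level of 4 paralogs as a percent of their canonical partner, both in CPM per kilobase of exon, in each library (points) with mean and SD of 5 libraries (bars); each panel has its own axis from 0. On average Rpl22l1 makes up a larger share in growth cones, and its libraries overlap between compartments in the labelled KO but not in WT. Rpl7l1 and Rps4l, the latter annotated as a pseudogene, make up a smaller share with no overlap in either labelled genotype. Rps27l overlaps between compartments.

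The labelled genotypes did not differ detectably. In growth cones 0 of 89 members were called (0% of 15419 genes), 0 had an unadjusted p under 0.05 (2.09% of genes), and the median log2 fold change was 0.01. In somata 0 of 89 were called (0.711% of 14911 genes), 0 had an unadjusted p under 0.05 (8.52% of genes), and the median was −0.02. DESeq2 and limma-voom also called 0 members in both. Canonical genes ran from −0.19 (Rpl23) to 0.18 (Rpl41) in growth cones and from −0.21 (Rpl22) to 0.35 (Rps10) in somata, with median standard errors of 0.23 and 0.15. For 76 of the 77 canonical genes, 2 standard errors on either side of the estimate stayed within a 2-fold change in both compartments; the exception was Rps10. Copies with low counts had wider ranges. Rps27rt was at 1.00 ± 0.96 and Rps3a3 at 0.59 ± 0.65 in growth cones, where library 7 labelled KO was high for both, and Rpl32l at −0.59 ± 0.49 and Rpl22l1 at −0.37 ± 0.25 in somata. In growth cones, 2 standard errors above the estimate reached 2.92 on the log2 scale for Rps27rt, the highest such bound among the members. Without WT soma library 12, the median in somata was 0.10 and 0 members were called.

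**Figure D5:**
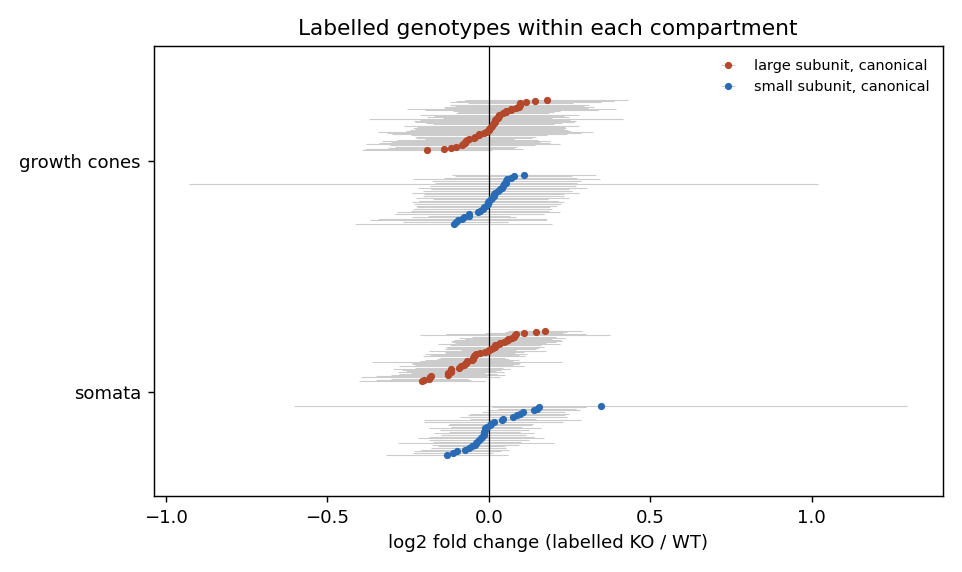
Log2 fold change between the labelled KO and WT for the 77 canonical genes in growth cones and in somata, by subunit and sorted within each row, with the standard error as bars. All estimates lie between −0.21 and 0.35, and the long bar in each small-subunit row is Rps10.

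Other genes of translation did not share one direction. The counts here and in the next paragraphs stand beside 22.8% of all genes higher and 19.5% lower in WT. In the labelled KO these shares were 21.1% and 17.2%. The lists overlap, since some elongation and initiation factors are also among the genes with TOP mRNAs. Fau and Rack1, ribosomal proteins that the symbol rule does not reach, were higher in growth cones in WT by 1.73 ± 0.25 and 0.75 ± 0.20, and also in the labelled KO. Of 26 genes with TOP mRNAs outside the rule, Fau and Rack1 included, 18 were higher and 3 lower in WT (median 0.84) and 19 and 3 in the labelled KO (median 0.97), with Tpt1 at 2.80 ± 0.23, Gas5 at 3.29 ± 0.32 and Snhg8 at 4.72 ± 0.51 in WT. Of 10 elongation and release factors, 4 were higher and 2 lower in WT (median 0.44), with Eef1a1 at 1.16 ± 0.12, and 5 and 2 in the labelled KO. The 2 lower are near the share of all genes.

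Among initiation factors, 21 of 37 were lower and 6 higher in WT (median −0.57), and 16 and 7 in the labelled KO (median −0.43). Eif1b and Eif1, which guide start codon choice, were at 2.82 ± 0.14 and 1.77 ± 0.14 in WT, and the scaffold subunits Eif3b and Eif3c at −1.70 ± 0.14 and −1.12 ± 0.12. Of 32 ribosome biogenesis genes, 21 were lower and 3 higher in WT (median −1.22), and 17 and 2 in the labelled KO (median −1.02). Examples in WT were Ncl at −1.76 ± 0.17, Rrp1 at −1.71 ± 0.11 and Wdr43 at −2.38 ± 0.29.

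Of 77 tested mitochondrial ribosomal protein genes, which serve a separate ribosome, 42 were higher and 5 lower in WT (median 0.78), and 40 and 2 in the labelled KO (median 0.75). Of 15 tested regulators of TOP mRNAs, 2 were higher and 3 lower in WT, near the 22.8% and 19.5% of all genes. Of 12 tested genes of the mitochondrial genome, 1 was higher and 2 lower in WT and 0 changed in the labelled KO, and none of 6 tested nuclear-retained RNAs passed in either. Between the labelled genotypes, 0 genes of these lists were called in either compartment.

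Features of the annotated starts are given as shares, with no test. Promoters of 68 of the 93 members, 57 of them canonical, were in the RefSeq table, which covers 27025 genes. A run of at least 8 C or T at the start was found in 36.8% of the canonical members and 11.2% of all genes, and a C followed by 4 or more C or T at the start itself in 21.1% and 2.53%. Within 300 bases around the start (250 before and 50 after), CTTTCC on the coding strand was found in 36.8% of canonical members and 14.1% of genes. The letters CCGGAAGT, a core of ETS factor sites, were found on either strand in 19.3% and 3.93%, and AAGATGGC, a core of YY1 sites, in 7.02% and 2.86%. TATAAA was found on either strand in 8.77% and 14.1%, and on the coding strand alone in 8.77% and 8.89%, which are close. In WT, the 21 canonical members with a run of at least 8 bases had a median log2 fold change of 1.90 and the 36 with a shorter run 1.89, and in the labelled KO 1.96 and 1.95. Across these 57 genes, run length and log2 fold change had a Spearman rho of 0.15 in WT and 0.14 in the labelled KO, given as a description. Of the 3 genes with the largest differences in WT, Rpl12 and Rpl31 have 7-base runs and Rps12 an 11-base run.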

How the data were processed

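The authors deposited 1 table of whole-number read counts per gene for 20 libraries (SMART-seq v4 and Nextera XT, per the labels' protocols). The submitters' processing notes name Trimmomatic 0.39, STAR 2.7.1a, featureCounts 1.5.0 and GRCm39, while the coordinates deposited in the table are those of GRCm38: 97.9% of its genes have the exon list of GENCODE M21. Strandedness and the treatment of reads with several hits are not given in the sources used here. Counts were filtered with filterByExpr (minimum count 10), scaled by TMM and tested with edgeR 4.0.16 (robust quasi-likelihood F test, R 4.3.3, Benjamini-Hochberg FDR 0.05 over all genes tested), with the 2 groups compared in each fit and all 20 libraries for the interaction. The test was tried on simulated data. Alternatives used DESeq2 1.42.0, limma 3.58.1 (voom), other scalings, no filter, length offsets and each library left out. Genes named are those of listed role sets and paralog pairs, the 5 highest and 5 lowest members of each comparison, and up to 4 genes of other lists by lowest p; Rpl4, Rps2, Rpl24 and Rpl13a were named after their values were seen. Members and lists were chosen with earlier results of these data known. Levels and intervals cover counting without molecular identifiers, so reads are not independent molecules. Values after ± are the SD over libraries for levels and the SE for log2 fold changes.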

Additional observations from a re-analysis of the deposited data

Results flagged for a closer look

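In 22 of 200 groups of 5 libraries examined, 1 library stood apart by Dixon's criterion (gap over range above 0.71), where chance gives about 1 in 20. WT soma library 12 accounts for most: its summed members were at 12579 CPM (others 8118 to 9288) and its small-subunit members at 5204.6 (3329 to 3742). In the same library Rpl3 was at 341.97 CPM, Rpl15 at 341.91, Rpl39 at 58.441, Rpl41 at 234.25, Rps3 at 424.89, Rps4x at 212.28, Rps25 at 178.28, Rps27a at 155.14, Rps10 at 2.6289 and Rps19bp1 at 56.93, each the highest of its group.

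Growth cone library 10 labelled KO was the lowest for Rpl23 (227.57 CPM, others 361 to 409) and Rpl38 (146.1 CPM, others 296 to 335). Growth cone library 7 labelled KO was the highest for the copies Rps27rt (14.304 CPM, others 1.52 to 2.47) and Rps3a3 (35.819 CPM, others 5.95 to 10.6). Growth cone library 8 labelled KO was high for Rpl15 (452.89 CPM), and WT growth cone library 8 for Rpl32l (6.9997 CPM). Among somata labelled KO, library 22 was high for Rpl38 (119.77 CPM) and Rps19 (319.05 CPM), and library 14 for Rps10 (3.2375 CPM). WT soma library 26 was high for Rps3a2 (3.5861 CPM).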

How the results depend on the processing

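Length offsets moved the members' median log2 difference between growth cones and somata to 1.22 in WT and 1.33 in the labelled KO, where 1 member was then lower, and turned Rpl38 (−0.24 in WT, −0.19 in the labelled KO), Rpl29 (−0.50) and Rps4l (−0.58, both labelled KO). At FDR 0.10, 1 member was lower in WT. With each library left out, members higher ranged from 80 to 83 in WT (median 1.83 to 2.11) and 81 to 85 in the labelled KO (1.78 to 2.12). Scalings moved the median of all genes from 0.07 to 0.28 in WT and from 0.09 to 0.31 in the labelled KO. The next values are for WT somata, somata labelled KO, WT growth cones and those labelled KO, in that order. Summed CPM with TMM scaling was 10118, 10124, 39742 and 39713. The subunit contrast was 0.553, 0.546, 0.721 and 0.735 as a ratio of sums per kilobase. Over all members it was −0.154, −0.211, −0.248 and −0.275, and with pseudocount 2 it was −0.007, −0.055, −0.037 and −0.059. Apart from length offsets, where gene length sets the offset, the cause of these moves was not tested.

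Between labelled genotypes and in the interaction, 0 members were called under every setting run; leave-one-out medians ran from −0.12 to 0.12 in growth cones, −0.07 to 0.10 in somata and −0.14 to 0.14 in the interaction. Over all genes, the 106 calls in somata became 402 with DESeq2 and 30 with all 20 libraries in one fit, the 0 in growth cones 11 and 6, and the 7 of the interaction 262 with DESeq2. With the experiment number as replicate block, medians were −0.01, 0.11 and −0.13 and all-gene calls 0, 33 and 0. To compare samples sharing a number, each gene's group mean was first subtracted from its log2 CPM. The remaining deviations correlated across genes at 0.004 to 0.088 in growth cones and −0.047 to 0.060 in somata. Of the samples with a partner, 7 of 10 and 5 of 8 were closest to their own number by this measure. The main fits did not use the numbers as pairs, while the block fits above did. Whether samples with the same number share an experiment effect was not tested.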
